A study of Mus musculus with 9 samples.

Results

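Renal ischemia-reperfusion injury was compared with sham surgery in mouse kidney, gene by gene, by RNA sequencing of whole tissue. The injured group, AKI_PBS, holds 3 libraries from mice with acute kidney injury that received saline (PBS). The sham group holds 3 libraries from normal mice that had the surgery without the injury. All mice are labelled wild type, and the sham mice carry the PBS treatment label too. These 6 libraries are 6 of the study's 9. The other 3, from injured mice given milk-derived extracellular vesicles loaded with siRNA against the phosphatase PTP1B, entered the statistical fit only to estimate the spread between libraries. The labels name no time after injury, strain, age or sex. They also leave unsaid if each library is its own mouse, so p-values reflect only how far these libraries spread, which may be technical.

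The kidney's proximal tubule reclaims glucose, amino acids, phosphate and filtered protein, and it pays for this work by burning fatty acids and amino acids in densely packed mitochondria. When its blood supply stops and returns, surviving tubule cells are known to flatten, lose their brush border and polarity, spread over bare basement membrane and later divide. The markers of tubular injury that are usually reported, such as Havcr1 and Lcn2, say little about how far the rest of the cell's programme is rewritten. The comparison below therefore goes through metabolism, protein synthesis, transport, cell shape, signalling and gene regulation, with the gene lists taken as given pathways and the values read from single genes.

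Each of the 6 libraries held between 9884364 and 11389479 reads counted to genes, and 17036 genes had enough counts to be tested. Levels are given as CPM, counts per 1000000 reads, scaled with the trimmed mean of M-values, and a mean ± SD is over n = 3 libraries. A change is the log2 fold change of AKI_PBS over sham with its standard error, and it is called when edgeR's quasi-likelihood test with Benjamini-Hochberg adjustment over all 17036 genes gives an adjusted p under 0.05. The words rose and fell are kept for called genes. The first principal component of the 6 libraries carried 79.79% of the variance and separated the groups. On the second, with 8.91%, AKI_PBS replicate 3 stood at -49.15 while replicates 1 and 2 stood at 30.82 and 19.99. In that library the proximal tubule markers lay 0.56 above the AKI_PBS mean on the log2 scale, against -0.21 and -0.27 in the other two. Values without it are given wherever they change a call or move a value by more than 1.5 times. The Y-linked genes Eif2s3y, Ddx3y and Uty were present in both groups and did not pass the test.

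Of the 17036 genes, 9488 differed between AKI_PBS and sham, 55.7% of those tested. Higher levels were called for 4734 genes (27.8%) and lower levels for 4754 (27.9%), and the median log2 fold change of all tested genes was 0.03. Changes of at least 2-fold were called for 2383 genes upward and 2844 downward. Which direction held more calls depended on the scaling: with library totals in place of the trimmed mean, 5250 genes were called higher and 4301 lower, and 2677 and 2587 of them by at least 2-fold. With 55.7% of all genes called, a pathway stands out only where far more than about 28% of its members went one way. Amino acid breakdown, MHC class II genes and the citric acid cycle lay at the lower end, and tubulins, feedback inhibitors of MAP kinase and the Hippo pathway lay at the upper end. The 3 AKI_PBS libraries all lay above the 3 sham libraries for 31.2% of genes and all below for 30.9%, so a lack of overlap alone is common here.

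**Figure D1:**
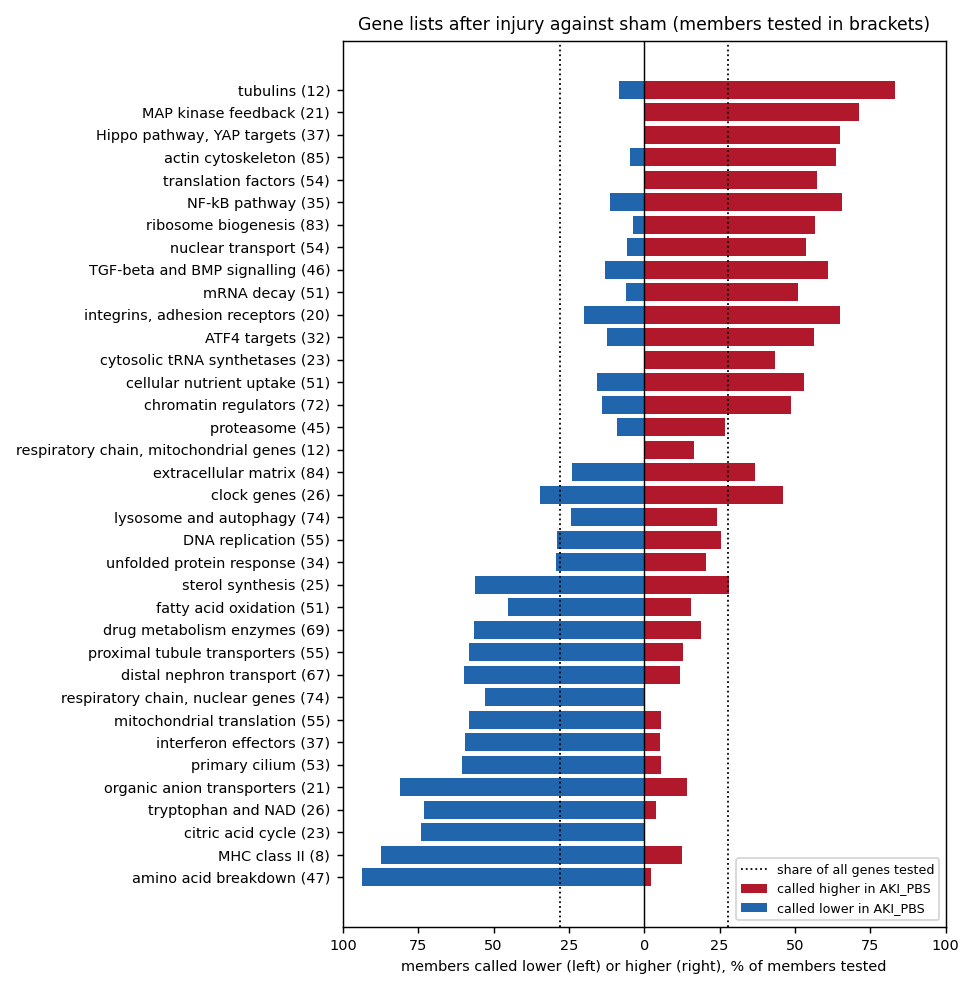
For 36 gene lists, the bars give the percentage of tested members called higher (right, red) or lower (left, blue) in AKI_PBS against sham, and the dotted lines give the shares of all genes tested, 27.8% higher and 27.9% lower. Amino acid breakdown reaches farthest to the left, with 44 of 47 members lower.

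Enzymes that break down amino acids fell almost without exception. Of 47 tested members, 44 were called lower and 1 higher, with a median log2 fold change of -1.22, beside 27.9% of all genes called lower. The branched-chain route, which degrades leucine, isoleucine and valine, had 18 of 19 members lower, counting the kinase that inhibits the route's dehydrogenase. The first enzyme of the route in the cytosol, the transaminase Bcat1, stood at 119, 109 and 100.3 CPM in the sham and 9.51, 9.95 and 17.7 CPM in the AKI_PBS libraries. Every AKI_PBS library lay below every sham library, and the fall was 3.15 ± 0.31 (edgeR adjusted p = 5.97e-06). Hibch, which releases an intermediate of valine from coenzyme A, fell by 1.79 ± 0.19. Mccc1, a subunit of the leucine-degrading methylcrotonyl-CoA carboxylase, fell by 1.46 ± 0.18, and Pcca, a subunit of propionyl-CoA carboxylase, by 1.28 ± 0.19. Hibadh, the dehydrogenase of valine breakdown, was the member of this route that did not pass (-0.26 ± 0.23).

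All 9 enzymes of phenylalanine, tyrosine and lysine breakdown were called lower. Aadat, a transaminase of the lysine and kynurenine routes, went from 542 ± 86.9 to 105 ± 47.8 CPM, a fall of 2.36 ± 0.30. Hgd, Gstz1 and Fah, which act one after another on homogentisate from tyrosine, fell by 1.39 ± 0.26, 1.28 ± 0.17 and 1.21 ± 0.19. In the glycine and choline group 11 of 12 fell, with the lowest median of the roles (-1.52). Bhmt2, a homocysteine methyltransferase, fell by 2.66 ± 0.23. Chdh and Sardh, which oxidise choline and sarcosine in mitochondria, fell by 1.82 ± 0.16 and 2.13 ± 0.23. The peroxisomal D-amino acid oxidase Dao fell by 1.62 ± 0.22. In proline and hydroxyproline breakdown 6 of 7 fell, with the peroxisomal oxidase Hao2 going from 393 ± 96.3 to 79.6 ± 28.8 CPM.

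The route that makes NAD from tryptophan was lowered along nearly its whole length. 7 of 8 genes fell and none rose, with a median of -2.06. Afmid, the formamidase of the second step, went from 101 ± 28.1 to 21.7 ± 3.62 CPM. Kmo, which hydroxylates kynurenine, fell by 1.95 ± 0.23. Haao makes the direct precursor of quinolinate and fell by 1.93 ± 0.18. Qprt, which commits quinolinate to NAD, stood at 190.5, 207 and 249 CPM in the sham and 66.6, 56.4 and 63.9 CPM in the AKI_PBS libraries, and its groups did not overlap (a fall of 1.79 ± 0.16, edgeR adjusted p = 1.84e-06). Acmsd diverts the same precursor away from NAD, and it fell by 3.61 ± 0.34, with 104, 161 and 149.7 CPM against 11.8, 8.32 and 13.7 CPM. The last enzyme, the NAD synthetase Nadsyn1, fell by 2.17 ± 0.23. Kynu, the kynureninase, was the one not called (-0.81 ± 0.42), though without sham replicate 3 its change of -1.21 passed (edgeR adjusted p = 0.0065).

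Of the 6 genes that rebuild NAD from its breakdown products, 4 fell and 1 rose. Nampt, the entry from nicotinamide, fell by 0.65 ± 0.13 and Nmrk1, the nicotinamide riboside kinase, by 2.02 ± 0.21. Naprt, which starts from nicotinic acid, fell by 1.17 ± 0.16, and Nmnat1, the nuclear adenylyltransferase, by 1.40 ± 0.16. Among NAD-consuming enzymes 8 of 12 fell. The mitochondrial deacetylase Sirt3 stood at 276, 294 and 303 CPM in the sham and 68.3, 56.1 and 91 CPM in the AKI_PBS libraries, with no overlap between the groups. Sirt4 and Sirt5, the other mitochondrial sirtuins, fell by 1.46 ± 0.22 and 0.77 ± 0.19. Parp1, which spends NAD on damaged DNA, fell by 1.23 ± 0.18.

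One-carbon metabolism moved in both directions, 15 of 26 members lower and 4 higher. The falls included Cbs and Cth, which turn homocysteine into cysteine (-2.34 ± 0.29 and -1.71 ± 0.23), and Slc46a1, the proton-coupled folate carrier (-2.16 ± 0.20). Mthfd1, the cytosolic folate enzyme, fell by 1.99 ± 0.17, and Shmt2, the mitochondrial serine hydroxymethyltransferase, by 2.13 ± 0.21. Unlike Shmt2, the mitochondrial folate enzymes Mthfd1l and Mthfd2 rose. The rise was 2.34 ± 0.24 for Mthfd1l, with 5.10, 3.81 and 4.47 CPM against 23.8, 25.9 and 18 CPM, and 1.39 ± 0.29 for Mthfd2. Psat1, the transaminase of serine synthesis, rose by 1.26 ± 0.20.

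Creatine and polyamine genes showed further single-gene contrasts. Gatm, which makes the creatine precursor guanidinoacetate, stood at 1107, 1227 and 1036 CPM in the sham and 106, 86.2 and 84.8 CPM in the AKI_PBS libraries and fell by 3.61 ± 0.28. Gamt, the methyltransferase that finishes creatine, fell by 2.02 ± 0.22. Arginase 2 (Arg2), the mitochondrial enzyme that splits arginine, rose by 3.90 ± 0.38, and the spermine oxidase Smox stood at 7.35, 9.39 and 9.35 CPM in the sham and 90.3, 114 and 82.1 CPM in the AKI_PBS libraries. The Smox groups did not overlap (a rise of 3.45 ± 0.23, edgeR adjusted p = 3.67e-07). Srm, the spermidine synthase, rose by 1.44 ± 0.29, and Sat1, the acetyltransferase that starts polyamine export, by 0.99 ± 0.14. Of the 5 genes that degrade purines, 4 rose, led by Xdh, the xanthine dehydrogenase that yields urate, which went from 24.9 ± 3.28 to 140.3 ± 21.2 CPM. Pnp, the purine nucleoside phosphorylase, rose by 0.99 ± 0.14.

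**Figure D2:**
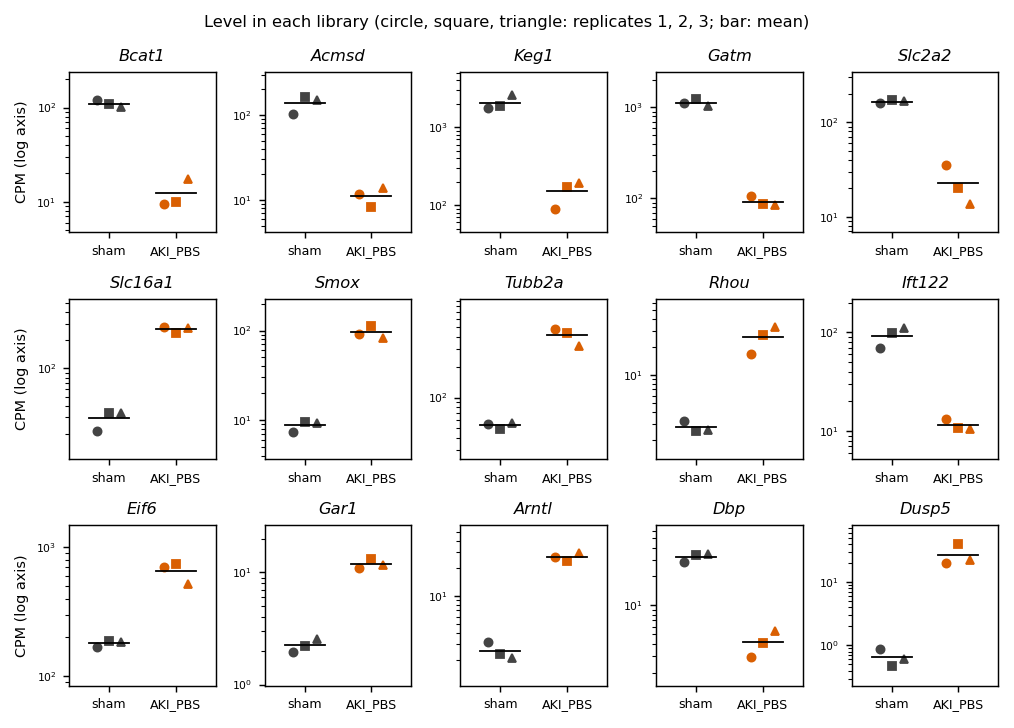
Level of 15 genes in each library on a log CPM axis, sham in grey and AKI_PBS in orange, with 1 symbol per replicate and a line at the group mean. Bcat1, Acmsd, Keg1 and Gatm lie far lower and Slc16a1, Smox, Tubb2a and Dusp5 far higher in every AKI_PBS library than in any sham library.

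Many nuclear genes for mitochondrial respiration fell, while none of the tested respiratory genes of the mitochondrial genome did. In the citric acid cycle list, which also holds cytosolic isoforms and malic enzymes, 17 of 23 members fell and none rose (median -0.65). Suclg1, the succinyl-CoA ligase subunit, fell by 1.11 ± 0.16 and Idh3a, the NAD-linked isocitrate dehydrogenase subunit, by 0.97 ± 0.13, whereas the malate dehydrogenase Mdh2 was not called (-0.18 ± 0.14). Of 74 nuclear genes of the respiratory chain, 39 fell and none rose, with a median of -0.43. The largest fall was that of Ndufs8, an iron-sulfur subunit of complex I, from 374 ± 32.9 to 144 ± 43.8 CPM. Among the 12 respiratory genes of the mitochondrial genome none fell, 2 rose (1 without AKI_PBS replicate 3, sham replicate 2 or sham replicate 3) and the median was -0.01. mt-Co1, which encodes the catalytic subunit of complex IV, stood at 4276, 3482 and 3754 CPM against 3849.8, 4424 and 4708 CPM, and its 95% interval ran from -0.13 to 0.48. The interval of mt-Cytb, the complex III subunit, ran from -0.45 to 0.26. The difference between the nuclear and the mitochondrial set was not tested as such.

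Regulators of mitochondrial content shifted too: 7 of 12 fell and 1 rose (2 rose without AKI_PBS replicate 1 or 2). The orphan receptors Esrra and Esrrg, which switch on oxidative genes, fell by 1.58 ± 0.17 and 1.32 ± 0.16, and their coactivator Ppargc1a by 1.03 ± 0.13. The related coactivator Pprc1, known from growing cells, rose by 1.54 ± 0.24. Tfam, which packages the mitochondrial genome, was not called, at 49.3, 53.5 and 58.1 CPM against 42.4, 50.4 and 66 CPM (-0.02 ± 0.16). Of the antioxidant genes, 6 of 8 genes of superoxide production and removal fell, among them the mitochondrial dismutase Sod2 by 0.93 ± 0.17 and the extracellular Sod3 by 1.0 ± 0.14. The thioredoxin system had 5 of 8 members higher, with Srxn1, which repairs peroxiredoxins, up from 43.4 ± 0.662 to 426 ± 182 CPM and the cytosolic reductase Txnrd1 up by 2.14 ± 0.18. The mitochondrial reductase Txnrd2 fell by 0.56 ± 0.14.

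Most tested nucleolar genes of ribosome assembly and most initiation factors were higher, and most genes of mitochondrial translation were lower. Nucleolar genes that assemble cytosolic ribosomes rose in 35 of 53 cases and fell in 1 (median 0.65). Gar1, a protein of the RNA-pseudouridylating particles, stood at 1.96, 2.23 and 2.54 CPM in the sham and 11.1, 13.2 and 11.6 CPM in the AKI_PBS libraries, and every AKI_PBS library was above every sham library. Fbl, the methyltransferase fibrillarin, rose by 1.49 ± 0.18 and Ddx21, a nucleolar helicase, by 1.48 ± 0.14. Rrp12, needed to export the precursor particles, rose by 1.59 ± 0.21. Pno1 of the same group was not called (0.07 ± 0.13). Translation factors and their regulators rose in 31 of 54 cases and none fell (1 fell without AKI_PBS replicate 2). Initiation factors alone rose in 19 of 33 cases. The regulators, 7 of 15 higher, include inhibitors of translation, so their rises do not count toward more synthesis. Eif6, which keeps the large ribosomal subunit from joining too early, went from 181 ± 10.3 to 654 ± 121 CPM, a rise of 1.85 ± 0.19 (edgeR adjusted p = 7.00e-06). Eif1, Eif1a and Eif5, which choose the start codon, rose by 1.16 ± 0.15, 1.25 ± 0.15 and 1.03 ± 0.13. Eif4ebp1, the repressor of cap-dependent initiation that mTOR switches off, rose by 2.21 ± 0.26, so that activators and a repressor of initiation were both higher.

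Mitochondrial translation had 32 of 55 genes lower and 3 higher. Among the enzymes that charge mitochondrial tRNAs 11 of 17 fell (median -0.66). Nars2, for asparagine, fell by 1.28 ± 0.17, and Rars2, for arginine, by 1.23 ± 0.19. Their cytosolic counterparts had 8 of 20 higher and none lower (5 higher and 1 lower without sham replicate 1, 2 lower without AKI_PBS replicate 1, and 1 lower with DESeq2 and with limma voom). Gars, for glycine, which serves both compartments, rose by 1.11 ± 0.13 and Vars, for valine, by 0.89 ± 0.18. Gfm2, which recycles mitochondrial ribosomes, went from 87.6 ± 10.2 to 31.3 ± 4.03 CPM, and Tufm, the mitochondrial elongation factor, fell by 1.11 ± 0.15. Mrps18b, a protein of the small mitochondrial ribosomal subunit, was an exception and rose by 1.15 ± 0.19.

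**Figure D3:**
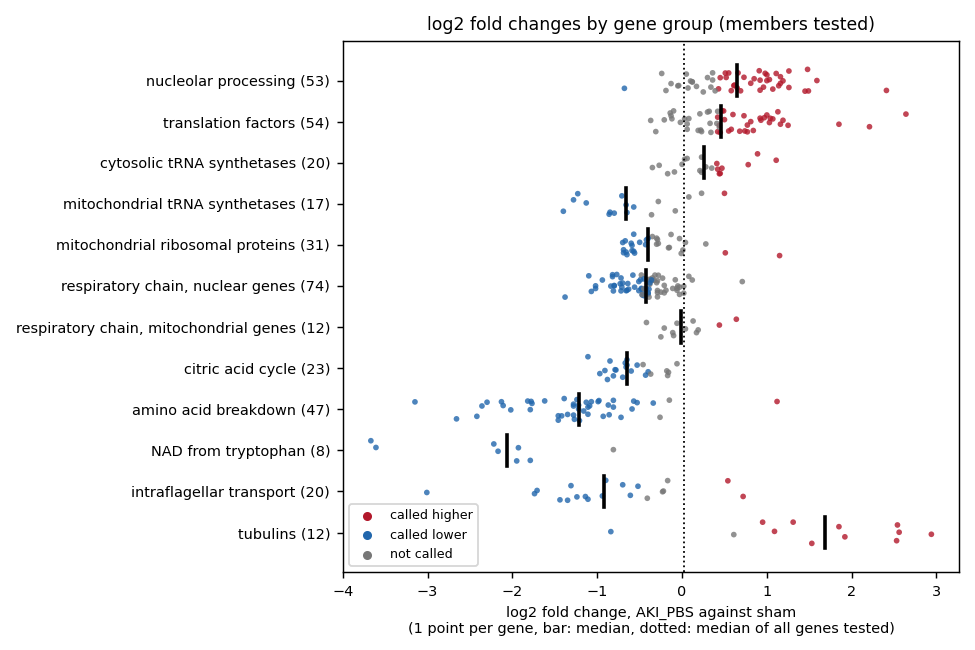
Each point is 1 gene placed by its log2 fold change of AKI_PBS over sham, in 12 groups, red where called higher, blue where called lower and grey where not called, with a black bar at the group median. By their medians the cytosolic translation groups lie right of the dotted median of all genes and the mitochondrial ones left of it, while the respiratory genes of the mitochondrial genome centre on -0.01.

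Of 54 genes of traffic between nucleus and cytoplasm, 29 rose and 3 fell (6 fell without AKI_PBS replicate 3). All 5 genes of the Ran cycle, the GTPase cycle that gives transport its direction, rose, with Ran itself going from 158 ± 7.56 to 279 ± 55.2 CPM and its exchange factor Rcc1 rising by 1.38 ± 0.17. Kpnb1, the importin that carries most classical cargo, rose by 1.28 ± 0.16, and the pore protein Pom121 by 1.57 ± 0.17. Among exportins and their partners 3 of 10 rose, near the 27.8% of all genes, and 1 fell, with a median of 0.13 (1 to 4 rose and 1 or 2 fell when 1 library was left out). Nxt2, a cofactor of mRNA export in that group, fell by 1.54 ± 0.17, while the export receptor Nxf1 was not called (-0.07 ± 0.15). Among the hnRNPs, which coat new transcripts, 10 of 17 rose, led by Hnrnpdl at 57.2, 55.9 and 45.6 CPM against 170.4, 184 and 172 CPM, a rise of 1.73 ± 0.14. Hnrnpk, an abundant member, was not called (-0.01 ± 0.13). Host transcripts of small nucleolar RNAs rose in 12 of 16 cases, for example Zfas1 by 1.89 ± 0.26 and Snhg5 by 1.66 ± 0.27. Genes of mRNA decay rose in 26 of 51 cases and fell in 3 (none without AKI_PBS replicate 2 and 1 without sham replicate 2). Btg1, an antiproliferative partner of the deadenylase, rose by 2.25 ± 0.24, and Zfp36l1, which marks AU-rich messages for decay, by 1.52 ± 0.25.

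Protein quality control changed less evenly. In the proteasome 12 of 45 genes rose, a share of 26.7% beside the 27.8% of all genes, and 4 fell. In its catalytic core none of the 7 alpha subunits was called. The regulatory particle had 9 of 19 higher, with Psmd11 up by 0.86 ± 0.13. Psmb9, a subunit that interferon induces, fell by 1.93 ± 0.34. Of 14 genes of oligosaccharyl transfer in the ER 9 fell and none rose, including Rpn2 (-0.87 ± 0.14) and Magt1 (-0.93 ± 0.13). The small heat shock protein Hspb1, which binds unfolding proteins and actin, went from 26.1 ± 6.23 to 210.3 ± 71.3 CPM, and Bag3, its partner in clearing damaged filaments, rose by 1.67 ± 0.16. Hsf1, the master factor of the heat shock response, fell by 0.76 ± 0.14, and so did the mitochondrial HSP90 Trap1, by 1.07 ± 0.15.

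Among the proximal tubule's reabsorption transporters 32 of 55 fell and 7 rose, and among carriers and storage genes that cells use for their own nutrient supply 27 of 51 rose and 8 fell. Within the reabsorption list 6 of 13 bicarbonate genes fell and 3 rose, with a median of -0.09. For glucose and related solutes 6 of 7 fell. The basolateral glucose carrier Slc2a2 stood at 159, 171 and 168 CPM in the sham and 35.1, 20.4 and 13.7 CPM in the AKI_PBS libraries, a fall of 2.85 ± 0.27. Slc5a12 and Slc5a8, which reclaim lactate, fell by 2.99 ± 0.37 and 2.62 ± 0.25. The main apical glucose carrier, Slc5a2, was not called (-0.45 ± 0.26). Against these stood Slc2a1, the glucose carrier of most growing cells, which rose by 1.64 ± 0.17, and the proton-linked lactate carrier Slc16a1, at 21.4, 33 and 32.9 CPM in the sham and 282, 240.3 and 273 CPM in the AKI_PBS libraries. The Slc16a1 groups did not overlap, and the rise was 3.19 ± 0.20 (edgeR adjusted p = 2.59e-07). Across glucose and lactate carriers of general use 5 of 7 rose and 1 fell.

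The summed level of the proximal tubule markers was between 11160 and 14250 CPM in the sham and between 4075 and 6662 CPM in the AKI_PBS libraries. These markers include reabsorption transporters, so the sum is not a separate measure of tubule content. Slc34a1 alone gave 3555 to 4658 CPM of it in the sham and 1303 to 2084 CPM in the AKI_PBS libraries. In whole tissue, fewer cells of a type and less RNA per cell cannot be told apart. The part of cell numbers in the transporter values was not tested.

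Amino acid, phosphate and sulfate carriers included both falls and rises. 10 of 16 reabsorptive amino acid carriers fell and none rose. Slc7a13, the aspartate and cystine carrier, fell by 3.52 ± 0.45, Slc6a20b, of the proline transporter family, by 2.59 ± 0.28, and Slc7a7, the basolateral exit for lysine and arginine, by 2.09 ± 0.25. Slc6a19, the apical carrier for neutral amino acids, was not called (-0.44 ± 0.24). Of carriers for general amino acid supply 8 of 15 rose, with Slc7a5 up by 2.65 ± 0.37, Slc7a1 by 1.70 ± 0.28 and Slc38a2 by 1.43 ± 0.21. The phosphate carrier pair diverged: Slc34a1, which reclaims phosphate, lost the most CPM of all genes, from 4118 ± 552 to 1639.7 ± 402 CPM, while Slc20a1, the housekeeping carrier, rose by 2.44 ± 0.22. The sulfate exchanger Slc26a1 and the citrate carrier Slc13a2 fell by 2.88 ± 0.24 and 2.68 ± 0.27. Zinc genes had 9 of 16 higher, with the zinc-binding Mt1 going from 31.7 ± 10.3 to 323 ± 26.5 CPM and the importer Slc39a14 rising by 1.62 ± 0.14.

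Genes of receptor-mediated protein uptake did not move together: of 9 tested, 3 fell and 2 rose, with a median of -0.04. Lrp2 (megalin) fell by 1.98 ± 0.17 and Cubn (cubilin) by 1.69 ± 0.15, and the chaperone Lrpap1 that escorts megalin fell by 1.44 ± 0.15. Dab2, the adaptor that couples megalin to clathrin, rose by 0.87 ± 0.17, and the clathrin light chain Cltb by 0.71 ± 0.18. Organic anion carriers, which secrete drugs and conjugates, fell in 17 of 21 cases (median -1.48). Slc22a30 went from 469.7 ± 92.4 to 38.6 ± 13.2 CPM and Slc22a13, which carries urate and nicotinate, fell by 3.48 ± 0.16. Organic cation carriers fell in 6 of 7 cases, with Slc22a2, the basolateral entry, down by 1.56 ± 0.21 and Slc47a1, the apical exit, down by 1.57 ± 0.19. Over the whole Slc nomenclature, 154 of 306 tested genes fell and 58 rose, with a median of -0.53.

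Farther down the nephron, 40 of 67 transport genes fell and 8 rose. The thin limb, which builds the medullary gradient, had 7 of 9 genes lower. The urea carrier Slc14a2 fell by 1.69 ± 0.29, and Slc14a1, its paralog of the descending vessels, by 4.38 ± 0.52. Slc4a1, the chloride-bicarbonate exchanger of acid-secreting intercalated cells and of red cells, stood at 62.3, 55.3 and 61.6 CPM in the sham and 5.62, 6.78 and 3.53 CPM in the AKI_PBS libraries. Of the other 6 tested red cell markers none fell. Slc26a4, the exchanger of base-secreting intercalated cells, was not called (0.32 ± 0.23). A pair of cation channels rose: Trpv5, for calcium, by 1.43 ± 0.31, and Trpm6, for magnesium, by 1.32 ± 0.26. Akr1b3, which makes the osmolyte sorbitol, fell by 2.81 ± 0.23.

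Drug-metabolising enzymes fell in 39 of 69 cases and rose in 13 (8 without sham replicate 3). All 6 acyl-conjugation genes fell (median -1.97). Keg1, a glycine acyltransferase-like gene of the kidney, stood at 1775, 1868 and 2559 CPM in the sham and 89.7, 171 and 190.3 CPM in the AKI_PBS libraries and was among the 3 largest losses of CPM in the whole table. Acsm5 and Acsm1, acyl-CoA synthetases of mitochondria, fell by 2.79 ± 0.29 and 1.49 ± 0.20. 8 of 11 genes of the UDP-glycosyltransferase (Ugt) family fell and none rose, with Ugt3a1 and Ugt8a down by 2.79 ± 0.19 and 2.70 ± 0.18. Glutathione transferases divided, 6 higher and 8 lower of 18: Mgst1, in the membrane, rose by 2.03 ± 0.27, while Gstm4 fell by 1.81 ± 0.20. Aldh1a3 and Aldh1a2, which both make retinoic acid, moved apart, Aldh1a3 from 37.4 ± 11.5 to 2.14 ± 0.451 CPM and Aldh1a2 from 1.97 ± 0.580 to 9.82 ± 5.21 CPM.

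Many genes of lipid synthesis and oxidation fell, while a gene of lipid storage rose. The droplet coat protein Plin2 stood at 199, 234 and 275 CPM in the sham and 3831, 3453 and 4135 CPM in the AKI_PBS libraries, a rise of 4.01 ± 0.25 and the second largest gain of CPM among all genes. Of 51 genes of fatty acid oxidation 23 fell and 8 rose (5 without AKI_PBS replicate 3 or without sham replicate 2). Acadm, the medium-chain dehydrogenase of mitochondria, fell by 1.17 ± 0.16, and Acox2 and Acox3, peroxisomal oxidases, by 2.18 ± 0.18 and 1.74 ± 0.22. In sterol synthesis 14 of 25 fell and 7 rose. Mvd, of the mevalonate branch, fell by 2.31 ± 0.21, Hmgcs1, at its head, by 1.97 ± 0.20, and Cyp51, which trims lanosterol, by 1.86 ± 0.20. Fasn, the fatty acid synthase, fell by 1.70 ± 0.14. Nr1h3, the sterol-sensing receptor LXR alpha, fell by 1.89 ± 0.18 and Abcg1, a cholesterol exporter, by 1.97 ± 0.34, so that genes of sterol supply and of sterol export were both lower.

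Carbohydrate enzymes included isoforms that changed in opposite directions. Gluconeogenesis had 6 of 10 genes lower and none higher (1 higher without AKI_PBS replicate 3). Pcx, which makes oxaloacetate from pyruvate, fell by 1.56 ± 0.26, Fbp1, the fructose bisphosphatase, by 1.26 ± 0.17, and Slc37a4, which brings glucose 6-phosphate into the ER, by 1.59 ± 0.23. The rate-limiting Pck1 was not called (-0.14 ± 0.27), but without AKI_PBS replicate 3 it was, at -0.59 (edgeR adjusted p = 0.025). In glycolysis 5 rose and 6 fell of 21, shares of 23.8% and 28.6% that are close to those of all genes. The phosphofructokinase isoforms Pfkm and Pfkl fell by 1.79 ± 0.16 and 1.18 ± 0.13, and the platelet isoform Pfkp rose by 1.02 ± 0.19. Hexokinase 2 (Hk2) rose by 2.59 ± 0.37, with 1.47, 2.05 and 0.914 CPM against 7.09, 12.4 and 7.51 CPM. Pgd, the NADPH-yielding enzyme of the pentose phosphate path, rose by 1.62 ± 0.17.

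Most tested genes of the actin cytoskeleton and of tubulin rose. Of 85 actin genes 54 rose and 4 fell (2 without sham replicate 2). Small GTPases of the cytoskeleton and their partners had 14 of 18 higher, with a median of 1.20. Rhou, an atypical member that loosens adhesions, stood at 3.23, 2.51 and 2.54 CPM in the sham and 17, 27 and 33.1 CPM in the AKI_PBS libraries. Rhob and Rhoc, which drive contractile fibres, rose by 1.89 ± 0.26 and 1.83 ± 0.18, and the kinase Rock2 by 1.74 ± 0.14. Pdlim7, which links kinases to actin filaments, rose by 2.77 ± 0.17, with 39.5, 41.2 and 32.8 CPM against 260.2, 277 and 237 CPM, and the bundling protein Actn1 by 2.25 ± 0.19. Myl6, a myosin light chain, was not called (0.24 ± 0.15). Tubulins rose in 10 of 12 cases and fell in 1 (median 1.69). Tubb2a stood at 54.7, 49.4 and 56.1 CPM in the sham and 476, 429.6 and 326 CPM in the AKI_PBS libraries, and Tuba1a and Tuba1c rose by 2.56 ± 0.18 and 2.53 ± 0.17. Tubulin genes are close in sequence, and how reads matching several of them were counted is not stated, so the split among them is uncertain.

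Most tested genes of the primary cilium, the antenna of the tubule cell that is itself built from tubulin, fell: 32 of 53 genes fell and 3 rose (1 without sham replicate 3). Intraflagellar transport had 14 of 20 members lower. Ift122, of the complex that returns cargo to the cell body, stood at 69.7, 97.4 and 109.7 CPM in the sham and 13.2, 10.6 and 10.4 CPM in the AKI_PBS libraries, a fall of 3.01 ± 0.21 (edgeR adjusted p = 4.26e-07). Ift140, of the same complex, fell by 1.44 ± 0.19, and Ift172 and Ift80, of the outbound complex, by 1.74 ± 0.16 and 1.71 ± 0.20. Kif3a, the outbound motor, was not called (-0.17 ± 0.13). In the group of Bardet-Biedl and transition zone genes 14 of 24 fell and none rose, with Bbs1 down by 1.56 ± 0.21 and Tmem67 by 1.36 ± 0.20. Pkhd1, mutated in recessive polycystic disease, was not called (-0.11 ± 0.14).

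Adhesion genes moved in both directions. Integrins and other adhesion receptors rose in 13 of 20 cases and fell in 4. Itga5 and Itgb3, which bind fibronectin and vitronectin, rose by 2.26 ± 0.20 and 3.04 ± 0.31, and Cd44, the hyaluronan receptor, by 2.66 ± 0.32. Itga8, an integrin of mesangial cells, fell by 1.52 ± 0.29. Claudins moved both ways, 6 higher and 8 lower of 17, with the sealing Cldn4 going from 110.2 ± 16.9 to 1183 ± 277 CPM and Cldn7 up by 2.12 ± 0.18. Junction and desmosome genes had 14 of 25 higher, including E-cadherin (Cdh1, 1.74 ± 0.15) and periplakin (Ppl, 1.87 ± 0.26). In the basement membrane the ubiquitous collagen IV chains Col4a1 and Col4a2 rose by 1.43 ± 0.15 and 1.37 ± 0.14, while Col4a3 and Col4a5, of the mature glomerular and tubular network, fell by 1.20 ± 0.17 and 1.68 ± 0.19. The aggrecanase Adamts4 rose by 6.67 ± 0.54, with 0.588, 0.186 and 0.305 CPM against 42.4, 48.7 and 21.6 CPM.

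Feedback inhibitors of MAP kinase rose in 15 of 21 cases and none fell (median 1.22). Dusp5, a nuclear phosphatase of ERK, stood at 0.882, 0.465 and 0.610 CPM in the sham and 19.7, 39.2 and 22.2 CPM in the AKI_PBS libraries, a rise of 5.35 ± 0.38 (edgeR adjusted p = 4.86e-07). Dusp8 and Dusp10, which act on the stress kinases JNK and p38, rose by 3.29 ± 0.23 and 2.17 ± 0.34. Spred3 and Spry1, which block Ras activation, rose by 3.71 ± 0.35 and 1.95 ± 0.25. Dusp1, an early response member, was not called (0.35 ± 0.33). Hbegf and Nrg1, ligands of the EGF receptor family, rose by 1.80 ± 0.27 and 2.21 ± 0.33, and Rhbdf2, which brings the ligand-shedding protease to the surface, by 2.54 ± 0.20. Relative to the sham mean, the 6 tested ligands had median log2 levels of -0.04, -0.19 and 0.21 in AKI_PBS replicates 1, 2 and 3. The ligands as a group therefore did not lean one way. Erbb2, the shared receptor, was at 58.8, 65.5 and 75.6 CPM against 59.4, 66.6 and 73.9 CPM, with a 95% interval of the log2 fold change from -0.31 to 0.31.

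In the Hippo pathway, which reads cell stretch and density, 24 of 37 genes rose and none fell (1 fell without AKI_PBS replicate 1). Its DNA-binding partner Tead1 went from 52.4 ± 1.33 to 169.7 ± 28.6 CPM and the coactivator Wwtr1 (TAZ) rose by 1.19 ± 0.16. The targets Ccn1 and Ccn2, secreted matrix proteins, rose by 2.56 ± 0.38 and 2.05 ± 0.25. The upstream tumour suppressor Nf2 was not called (-0.02 ± 0.14). TGF-beta and BMP genes rose in 28 of 46 cases and fell in 6. Among receptors and SMADs 13 of 17 rose, with Tgfbr1 up by 1.71 ± 0.22, Smad3 by 1.64 ± 0.18 and Smad1, of the BMP branch, by 2.39 ± 0.20. The ligands Gdf15, a stress hormone, and Bmp6, an iron-regulating factor, rose by 3.99 ± 0.26 and 2.24 ± 0.24. Sostdc1, a BMP and Wnt antagonist of the distal tubule, fell from 234 ± 28.6 to 43.2 ± 9.02 CPM.

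Wnt genes did not move together, 8 higher and 14 lower of 34. Wnt5b and Wnt9b, ligands, fell by 3.45 ± 0.21 and 2.99 ± 0.42, and the antagonist Sfrp1 by 2.10 ± 0.17. Vascular growth factor genes had 6 of 14 lower and 2 higher: Angpt1 and its receptor Tek fell by 1.28 ± 0.26 and 1.0 ± 0.25, while Pgf and its receptor Flt1 rose by 1.89 ± 0.38 and 1.01 ± 0.23. Fgf1, a fibroblast growth factor, and Kl (klotho), the coreceptor for a phosphate hormone, fell by 1.57 ± 0.15 and 1.55 ± 0.23. In growth hormone signalling the receptor Ghr went from 889 ± 104 to 301 ± 26.8 CPM, and Igf1, its effector, fell by 3.22 ± 0.33. Igf1r, the receptor of Igf1, was not called (-0.04 ± 0.12).

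Blood pressure genes also changed by step. Agt, the precursor of angiotensin, fell by 2.25 ± 0.19, the converting enzyme Ace by 1.69 ± 0.25 and the receptor Agtr1a by 1.90 ± 0.21, and 6 of 8 genes of this system were lower. The constrictor endothelin 1 (Edn1) stood at 1.96, 2.05 and 1.63 CPM in the sham and 15, 27 and 21.7 CPM in the AKI_PBS libraries, a rise of 3.49 ± 0.33, whereas Edn3 fell by 2.35 ± 0.27. Adora2b, the low-affinity adenosine receptor, rose by 3.32 ± 0.25. Nt5e and Entpd1, which turn released ATP into adenosine, rose by 1.70 ± 0.19 and 1.81 ± 0.27, and Adk, which removes adenosine, fell by 0.84 ± 0.17. Ptgs2, the inducible cyclooxygenase, rose by 2.57 ± 0.37, and Hpgd, which inactivates prostaglandins, fell by 2.08 ± 0.26. Relative to the sham mean, the 13 tested purine signalling genes had median log2 levels of -0.03, -0.01 and -0.19 in the AKI_PBS libraries. The 16 prostaglandin genes had -0.05, -0.05 and -0.19, so these single genes do not stand for their groups.

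Most tested ligands of the IL-6 family rose, 3 of 4, and so did most targets of STAT3. Clcf1, a ligand that acts through the shared subunit gp130, stood at 4.51, 3.63 and 5.08 CPM in the sham and 60.4, 80.8 and 101 CPM in the AKI_PBS libraries, with no overlap between the groups (a rise of 4.20 ± 0.26, edgeR adjusted p = 2.46e-07). The oncostatin receptor subunit Osmr rose by 2.83 ± 0.30, while Lifr fell by 0.77 ± 0.13 and the shared subunit Il6st was not called (0.19 ± 0.15). Of 24 feedback and target genes 17 rose and 1 fell (4 fell without AKI_PBS replicate 3 and 3 without sham replicate 1). Fga, the fibrinogen alpha chain, went from 17.8 ± 3.0 to 709 ± 255 CPM and its partner chain Fgg from 10.8 ± 2.80 to 1067 ± 425 CPM. The letters that STAT factors bind, TTC, any 3 bases, then GAA (TTCNNNGAA, searched on both strands; the pattern reads the same on both), were looked for in the window from 250 bases before to 50 after each start site in RefSeq (mouse build GRCm38.p6). They occurred in 8.47% of all 27025 windows, and in 5 of the 18 windows found for this group. Enrichment was not tested, since the group was chosen with earlier results of these data known. The stretches of 3 of these genes, all of which rose, are shown with the match in capitals, read on the gene's strand, to place the letters against the start sites.
Fga, chr3:83025903-83025957 (+): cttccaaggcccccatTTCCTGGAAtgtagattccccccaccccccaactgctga
Fgb, chr3:83049987-83050055 (-): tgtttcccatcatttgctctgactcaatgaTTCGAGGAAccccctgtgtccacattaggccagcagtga
Socs3, chr11:117969482-117969550 (-): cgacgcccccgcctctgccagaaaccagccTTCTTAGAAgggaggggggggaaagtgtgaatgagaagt
The matches begin 234 bases before the start of Fga, 162 before that of Fgb and 154 before that of Socs3. Fgb, the beta chain of fibrinogen, stood at 0.686, 0.837 and 0.711 CPM against 621, 282 and 88.3 CPM, a rise of 8.77 ± 1.33, which was 7.93 without AKI_PBS replicate 1. Socs3, the feedback inhibitor of the pathway, stood at 3.33, 2.70 and 1.83 CPM against 69.5, 97.8 and 105 CPM. Cish, whose window holds the letters too, was not called (-0.97 ± 0.41), though it fell without AKI_PBS replicate 3 (-1.38, edgeR adjusted p = 0.035) or sham replicate 1 (-1.29, adjusted p = 0.017). A match is a description of the sequence and not a binding measurement.

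The stress response of amino acid shortage and the response to unfolded proteins in the ER are linked through the factor ATF4. They did not move alike. Targets of the factor ATF4 rose in 18 of 32 cases, beside 27.8% of all genes, and fell in 4. On the log2 scale their median relative to the sham mean was 0.84, 0.75 and 0.77 in AKI_PBS replicates 1, 2 and 3. For the 17 stress targets among them it was 1.05, 1.09 and 1.46. Of the 15 targets in amino acid supply 7 rose and 3 fell (5 fell without AKI_PBS replicate 1). Their median level relative to the sham mean was 0.81, 0.72 and -0.05 on the log2 scale in AKI_PBS replicates 1, 2 and 3, so the third library lay at the sham level. Atf4 itself went from 65.2 ± 7.15 to 277 ± 90.8 CPM. Asns, which makes asparagine, stood at 11, 6.79 and 9.85 CPM in the sham and 58.8, 44.3 and 36.1 CPM in the AKI_PBS libraries, a rise of 2.33 ± 0.26. Trib3, a pseudokinase, rose by 2.58 ± 0.40 and Ppp1r15a, which restores initiation, by 1.99 ± 0.20. In the ER the chaperone group had 7 of 15 genes lower and 1 higher (none higher without AKI_PBS replicate 3 or any 1 sham library). Sensors of unfolded proteins and their partners had 4 of 7 higher and 2 lower, with Atf6 up by 0.65 ± 0.14 and the related Atf6b down by 0.71 ± 0.17. Among the chaperones Sdf2l1, an ER stress marker, fell by 1.53 ± 0.21, the calcium-binding Calr by 0.82 ± 0.14 and the HSP90 of the ER, Hsp90b1, by 0.65 ± 0.12. The composite letters of ATF4 and C/EBP factors, TGATGNAAT on either strand, occurred in 0.969% of the 27025 windows, in 2 of the 28 windows of the ATF4 targets and in 3 of the 12 windows of cytosolic tRNA synthetases. 2 of these 3 belong to synthetases that rose, Gars and Aars, and are shown because they are members of the translation group described above.
Gars, chr6:55037940-55038008 (+): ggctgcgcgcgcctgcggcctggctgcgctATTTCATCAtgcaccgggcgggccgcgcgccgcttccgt
Aars, chr8:111033699-111033767 (+): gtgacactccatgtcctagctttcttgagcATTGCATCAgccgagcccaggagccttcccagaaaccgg
The capitals mark the match, which lies on the opposite strand in both, 31 bases before the start of Gars and 113 before that of Aars. Gars stood at 84.8, 91.6 and 99.5 CPM against 203, 182 and 212 CPM and Aars at 113, 126 and 144 CPM against 174, 171 and 186 CPM, so that the sham and AKI_PBS libraries of both were separate. Windows were found for 11584 of 17031 tested symbols, fewer than 80%, so a comparison of motif shares between higher and lower genes is void and is not given. The counts of windows in the lists above were not tested for enrichment either.

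Transcription factors were counted by role. Among factors of tubule identity 16 of 26 fell and 1 rose (median -0.60; between 0 and 2 rose when 1 library was left out). Hnf4g, of the proximal tubule, fell by 1.49 ± 0.26, Irx1 by 1.93 ± 0.24 and Emx1 by 1.56 ± 0.22. Pax8, a factor of the whole nephron, had 0.27 ± 0.12 and was not called. Stress-induced factors rose in 21 of 38 cases and fell in 2. Maff, a small partner of NRF2, rose by 4.80 ± 0.36, Runx1 by 3.80 ± 0.45, and Etv4, an effector of receptor tyrosine kinases, by 3.92 ± 0.37. The chromatin architect Hmga1 rose by 3.04 ± 0.21, with 12.3, 14.1 and 15.5 CPM against 122, 137 and 88 CPM. Among developmental genes Sox4 rose by 2.50 ± 0.23 and Bcl11b fell by 3.0 ± 0.38, with 4 higher and 6 lower of 22. Neither share exceeded that of all genes, 27.8% higher and 27.9% lower. All 5 NF-kB subunits rose, from 0.84 ± 0.16 for Nfkb1 to 1.81 ± 0.23 for Relb.

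Clock genes moved in both directions, 12 higher and 9 lower of 26. Arntl (also known as Bmal1), the activator, stood at 3.14, 2.33 and 2.13 CPM in the sham and 26.7, 23.8 and 29.5 CPM in the AKI_PBS libraries, a rise of 3.39 ± 0.21. Its partner Npas2 rose by 4.44 ± 0.39. The output factors Dbp, Hlf and Tef fell by 2.95 ± 0.22, 3.02 ± 0.16 and 2.17 ± 0.24, with Dbp at 28.5, 33.8 and 34.1 CPM against 2.94, 4.12 and 5.39 CPM. The repressors moved apart, Per1 higher by 1.77 ± 0.19 and Per3 lower by 1.79 ± 0.20, and Nr1d1, which represses Arntl, was not called (0.28 ± 0.21). The labels name no time of day of sampling, and a difference in it between the groups cannot be told apart from the injury in these genes.

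Steroid receptors fell in 4 of 6 cases and none rose. The estrogen receptor Esr1 fell by 2.16 ± 0.25, the mineralocorticoid receptor Nr3c2 by 0.95 ± 0.19 and the glucocorticoid receptor Nr3c1 by 0.70 ± 0.14. All 10 genes that are higher in male than in female mouse kidney fell (median -1.68), for example Cyp7b1 by 3.75 ± 0.35 and Acsm3 by 2.46 ± 0.43. Of the female-biased genes 3 of 6 fell, with Akr1c18 down by 3.75 ± 0.36, and 1 rose (2 without sham replicate 1). Many of these genes belong to the proximal tubule, whose marker sum was given above. Some of the male-biased genes, among them Cyp7b1 and Slc7a13, are themselves part of that sum.

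Chromatin regulators rose in 35 of 72 cases and fell in 10 (6 without sham replicate 2). Smarca2 (BRM) stood at 281, 275 and 389 CPM in the sham and 57.8, 63.4 and 70.3 CPM in the AKI_PBS libraries, a fall of 2.30 ± 0.18, while its paralog Smarca4 (BRG1) was not called (0.32 ± 0.14; 0.43 without AKI_PBS replicate 3, edgeR adjusted p = 0.014). Chd7, another remodeller, rose by 2.01 ± 0.20. Histone methyltransferases had 9 of 14 higher, with Setd7 up by 1.72 ± 0.16 and Dot1l by 1.14 ± 0.14. Hdac10 and Hdac11 fell by 1.55 ± 0.15 and 1.15 ± 0.17, and Hdac7 rose by 1.35 ± 0.16.

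Genes of cell survival and genes of cell death both included rises. Of 8 survival genes 7 rose, with Bcl2l1 (BCL-XL) going from 259 ± 11.6 to 809 ± 159 CPM and Birc3 up by 2.05 ± 0.18. Bcl2 itself was not called (-0.11 ± 0.15). Among BCL2 relatives that promote death 5 of 10 rose, led by Bbc3 (PUMA) at 2.24 ± 0.33. The executioner of necroptosis, Mlkl, rose by 2.86 ± 0.35, with 2.55, 2.33 and 2.74 CPM against 25.4, 21 and 9.01 CPM, and its kinase Ripk3 by 1.46 ± 0.33. Acsl4, which supplies the lipids oxidised in ferroptosis, rose by 2.32 ± 0.19, while the protective peroxidase Gpx4 was not called (-0.34 ± 0.16). Tnfrsf12a, the receptor of the death ligand TWEAK, rose by 3.98 ± 0.23, and the death ligand Tnfsf10 (TRAIL) fell by 2.87 ± 0.23. Genes of DNA repair had 6 of 22 lower, 27.3% beside the 27.9% of all genes, and 3 higher (5 lower and 5 higher with library totals), with the checkpoint kinase Chek2 down by 2.13 ± 0.22 and Xrcc6, of the end-joining complex, down by 1.02 ± 0.17. DNA replication genes did not lean one way, 14 higher and 16 lower of 55, and Ccnd1 (cyclin D1) fell by 1.17 ± 0.16 while Cdk6 rose by 1.14 ± 0.18.

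Immune genes changed unevenly. Effectors of interferon fell in 22 of 37 cases and rose in 2. Ifi44 fell by 2.25 ± 0.31 and the upstream factor Irf7 by 1.21 ± 0.28. Oasl1, which blocks translation of Irf7, rose by 2.77 ± 0.22, and so did the cytosolic DNA sensor adaptor Tmem173 (STING), by 1.69 ± 0.28. MHC class II genes, which present antigen to helper T cells, fell in 7 of 8 cases. Their master regulator Ciita stood at 6.57, 5.30 and 4.27 CPM in the sham and 1.47, 0.772 and 0.619 CPM in the AKI_PBS libraries, and H2-Aa and H2-Eb1 fell by 1.53 ± 0.23 and 1.45 ± 0.21. The exception was the processing protease Ctss, which rose by 1.15 ± 0.27. The classical class I genes H2-K1 and H2-D1 rose by 0.89 ± 0.14 and 0.89 ± 0.16. Markers of the cells that carry class II were counted beside these values. Of 10 tested macrophage markers 4 were lower and 1 higher, beside 27.9% of all genes lower. All 3 tested B and plasma cell markers were lower. The 3 tested dendritic cell markers had medians of -1.88, -1.91 and -0.79 in AKI_PBS replicates 1, 2 and 3, on the log2 scale relative to the sham mean. The macrophage markers summed to 287 to 497 CPM in the sham and 217 to 254 CPM in the AKI_PBS libraries. Without Cd74, the chaperone of class II molecules, they summed to 119 to 163 and 88.9 to 130.2 CPM, and those ranges overlapped. The sums of the B and plasma cell markers were 10.8 to 18 and 2.25 to 2.56 CPM. Within the macrophage list Csf1r, the growth factor receptor, fell by 1.96 ± 0.16 and Cd68, a lysosomal protein, rose by 2.28 ± 0.31, while C1qa was not called (-0.15 ± 0.27). Their part in the class II values was not tested. The tested neutrophil markers all rose, 11 of 11. Lcn2, which injured tubules also make, gave 83.3% to 94.8% of their sum in the AKI_PBS libraries. Without it the other 10 markers summed to 0.61 to 1.18 CPM in the sham and 27.4 to 51.4 CPM in the AKI_PBS libraries. Their part in the values of signalling genes above was not tested. The CXC chemokine group of 10 genes had medians of 0.78, 0.73 and 0.51 in AKI_PBS replicates 1, 2 and 3, on the log2 scale relative to the sham mean. The CC group of 9 had -0.38, 1.10 and 0.57. Unlike the CXC median, the chemokine Cxcl12, which holds leukocytes and progenitors in place, fell from 184 ± 30.4 to 42.4 ± 12 CPM. The cytokines Il15 and Il34 moved apart, Il15 lower by 2.30 ± 0.22 and Il34, a ligand of Csf1r, higher by 2.49 ± 0.28.

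**Figure D4:**
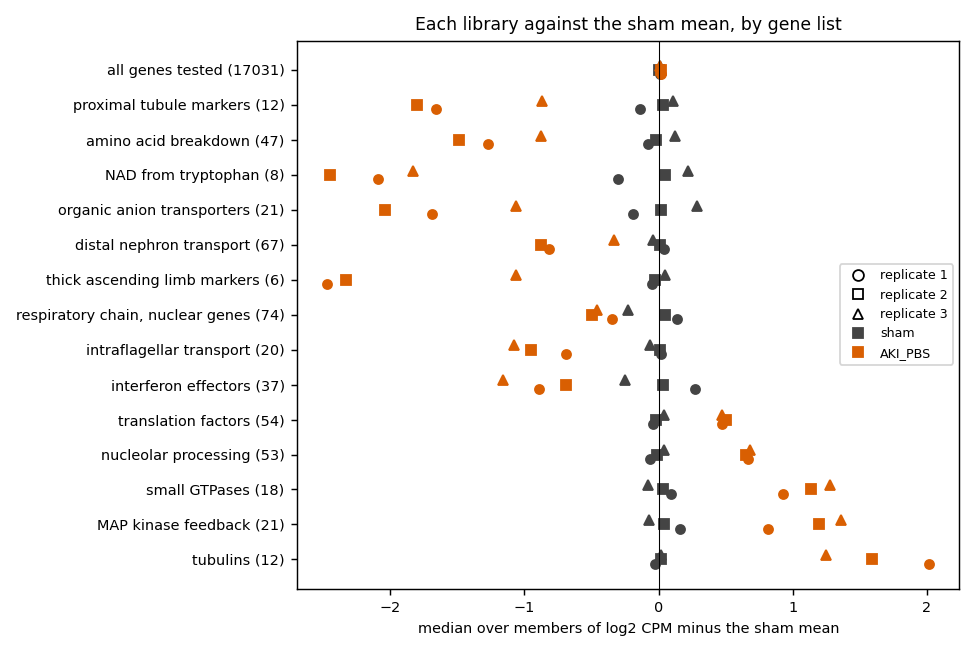
For 15 gene lists, the median over members of log2 CPM minus the sham mean is drawn for each of the 6 libraries, sham in grey and AKI_PBS in orange. All AKI_PBS libraries lie on the same side of the sham libraries in every list drawn except the list of all genes, and AKI_PBS replicate 3 lies nearer to sham than replicates 1 and 2 for the proximal tubule, amino acid, organic anion and distal nephron groups. Where 2 identifiers share a symbol, 1 is drawn.

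Genes were also grouped by the stem of their symbol, over the 138 stems with at least 12 tested genes. The carbonic anhydrases (Car) had 9 of 13 members lower and 2 higher, with the lowest median of these stems (-1.73). The Nat stem, mostly the kidney's Nat8 acetyltransferases, had 11 of 13 lower, and the aldo-keto reductases (Akr) 10 of 15. At the other end the keratins (Krt) had 12 of 17 higher (median 2.12), the Snhg transcripts 9 of 14 (1.19) and the kallikreins (Klk) 7 of 12 (1.06). Kallikrein genes of the mouse are near copies of each other, and the split of reads among them is uncertain.

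Several of the largest single changes lay outside these families. Among genes of moderate or high level, Akap12, a scaffold of protein kinase A, stood at 15.9, 12.6 and 11.7 CPM in the sham and 453, 357 and 182 CPM in the AKI_PBS libraries. Sphk1, which makes sphingosine 1-phosphate, rose by 4.04 ± 0.27, Sfn (14-3-3 sigma), a brake on the cell cycle, by 4.15 ± 0.28, and the steroid-inducible factor Zbtb16 by 4.24 ± 0.37. On the falling side Tmem25 stood at 146, 189 and 233 CPM in the sham and 13.5, 8.83 and 6.10 CPM in the AKI_PBS libraries, and Rnf24, a ubiquitin ligase-like protein, fell by 4.54 ± 0.36. Ranbp3l fell by 4.11 ± 0.32, Nlrp6, an innate sensor of epithelia, by 3.76 ± 0.21, Hykk, the hydroxylysine kinase, by 3.68 ± 0.22, and the brush-border protease Mep1b by 3.67 ± 0.32. These genes were chosen among called genes whose groups did not overlap, so neither is a finding here.

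In the RNA pool the change was spread over many genes. Gains summed to 212800 CPM over tested genes and losses to -267100 CPM, and the 10 largest made up 11.08% of the gains and 6.257% of the losses. Spp1 (osteopontin) gained most, from 1351 ± 232 to 7822 ± 1424 CPM. The nuclear-retained RNAs Neat1 and Malat1 followed Plin2 among the gains, rising by 1.57 ± 0.23 and 1.09 ± 0.15, and Tsc22d1, a leucine zipper protein, and Ndrg1, a gene that low oxygen induces, went from 554 ± 6.61 to 2205 ± 589 CPM and from 981 ± 98 to 2643 ± 455 CPM. On the losing side Cyp4b1, a monooxygenase, went from 3718 ± 783 to 1480.3 ± 613 CPM, Acy3, which deacetylates mercapturic acids, from 2347 ± 583 to 689 ± 393 CPM, and Napsa, a lysosomal protease, from 1823 ± 196 to 683 ± 112 CPM.

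For 1479 genes (8.68% of those tested) the 95% interval of the log2 fold change lay within 0.5 of 0 on both sides, so that a change beyond that size was not found at this depth (854 genes without sham replicate 2). The secreted peroxidase Gpx3, made by the proximal tubule, stood at 9511, 9054 and 8895 CPM against 8785, 7629 and 9647 CPM, with an interval from -0.40 to 0.24. The glycolytic Aldoa had an interval from -0.20 to 0.33, and Psap, which gives rise to lysosomal activators, one from -0.47 to 0.11. A further 6069 genes were not called and had wider intervals, so that neither a change nor its absence was shown for them.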

How the data were processed

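RNA from whole mouse kidney was sequenced in 9 libraries, 3 sham, 3 AKI_PBS and 3 AKI_PTPi_mEVs, the last used only for the spread. The unit is counts: whole-number read counts per Ensembl gene, as deposited by the authors. The labels' protocols describe phenol-chloroform extraction and a transposase-based kit with an input of 100 ng. Per the submitters' processing notes, STAR and HTSeq were used, with no versions. These notes name the human build GRCh38.p14, while the identifiers are mouse ones, so no coordinates were taken from the table. Strand setting and read filters: not given in the sources used here.

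Of 56923 identifiers, 52073 were paired with a symbol. Genes passing edgeR's filterByExpr with a minimum count of 10 were scaled by the trimmed mean of M-values and tested with edgeR 4.0.16 (R 4.3.3) in a robust quasi-likelihood fit of group means with 6 residual degrees of freedom. P-values were Benjamini-Hochberg adjusted over all tested genes. The standard error is the log2 fold change divided by the square root of the F statistic. The test was also run on simulated data in which few genes changed, as many up as down. That run cannot check the scaling for data in which 55.7% of genes were called. There were 3 libraries per group, with totals between 9467851 and 11389479 counts, which limit the precision of low genes. CPM values are not per length, so levels are compared between libraries and not between genes.

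The members and lists were chosen with earlier results of these data known: 97 gene lists, 70 of pathways and 27 of cell types, held 3161 symbols, 3153 of them matched. Lists carry no test of their own. Genes were named by a rule: up to 6 called members per list or role by absolute log2 fold change with mean log2 CPM no lower than 1, up to 3 uncalled members by level, any member of small roles, and the top of the rankings by change, by CPM and by closeness to no change. Alternatives were other scalings, DESeq2 1.42.0, limma voom 3.58.1, other filters, the 6 libraries alone, a replicate term and leaving out each library. Promoter windows came from RefSeq tables.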

Additional observations from a re-analysis of the deposited data

How the results depend on the processing

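Between 8929 and 9551 genes were called under other scalings, other tools, the replicate term and the 6 libraries alone, against 9488. With no low-count filter 10712 of 34890 genes were called, and with a minimum count of 50 there were 7572 of 12509. Under that stricter minimum 1515 called genes were at least 2-fold higher, against 2383, and fewer genes were tested. Leaving out 1 library at a time gave 8028 to 9515 called genes, 3880 to 4702 of them higher and 4148 to 4813 lower, with 2283 to 2625 at least 2-fold higher and 2784 to 3118 at least 2-fold lower. Genes whose interval lay within 0.5 of 0 numbered 854 to 1644 over these fits, the fewest without sham replicate 2; the cause was not tested.

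Deviations from the group means correlated at 0.054, -0.017 and 0.111 between sham and AKI_PBS libraries with the same replicate number, so the numbers were not taken to pair libraries. With the replicate block 9213 genes were called, 4543 higher and 4670 lower, of which 2337 and 2852 were at least 2-fold higher and lower, and 1312 intervals lay within 0.5. Of the same-numbered correlations, that of replicate 1 was below the 0.074 of AKI_PBS replicate 1 with sham replicate 2.

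Over 340 named genes and 14 alternatives, 4746 of 4759 values kept their direction and their side of the threshold, 13 values of genes without a call passed the threshold, and none lost a call or reversed. Pax8 passed under library totals (0.35) and with DESeq2 (0.27), and Slc6a19 with no low-count filter (-0.47) and with the 6 libraries alone (-0.44). Of 2604 counts of list members under alternatives, 113 differed from the main count by more than 1.5 times. Sequencing depth limits genes near the count minimum most.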
